A study of Oryza sativa with 216 samples.

Results

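Flag leaves of the rice recombinant inbred lines (RILs) were divided by the level of LOC_Os01g53390, a putative glucosyltransferase gene of distal chromosome 1 that was read here from a single probe set. The cut was set at the midpoint between the mean of the 3 Minghui 63 arrays and the mean of the 3 Zhenshan 97 arrays, which was 7.5 on the log2 scale. Of the 210 RIL arrays of the series, to which 6 parental arrays are added, 110 lay above the cut, on the side of Minghui 63, and 100 lay below it, on the side of Zhenshan 97. They are called Minghui 63-type and Zhenshan 97-type lines here. The type was read from expression alone, and no genotype call was used.

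Both parents are indica rice, and the RILs were bred from their cross by single-seed descent, so that each line is a mosaic of the parental genomes. All plants were untreated, and flag leaves were taken at heading from 3 plants of a line in each of 2 plantings. The RNA of the plantings was pooled on 1 array per RIL, so a line has no spread of its own, while each parent was measured on 3 arrays. Expression is given as the deposited robust multi-array average (RMA) value, a background-corrected log2 signal per probe set, and a difference of 1 is a doubling of signal.

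Plant family 1 glycosyltransferases move a sugar, usually glucose from UDP-glucose, onto small molecules such as flavonoids, hormones and other phenolics, which changes their solubility, stability and storage. Their genes often lie in tandem arrays that arose by local duplication, and related copies can differ in expression between cultivars. In a RIL population, a line that carries one parent's allele at such a gene generally also carries that parent's alleles at the genes beside it, and the association fades with distance as recombination separates them.

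The level of LOC_Os01g53390 chose the groups, so its values are a description. Among Minghui 63-type lines the lowest, median and highest values were 7.55, 8.70 and 9.25, and among Zhenshan 97-type lines 4.36, 6.03 and 7.28. The Minghui 63 arrays read 8.48, 8.92 and 8.45, and the Zhenshan 97 arrays 7.42, 5.63 and 6.12. The first Zhenshan 97 array thus lay close under the cut. Just above the cut stood lines at 7.55, 7.79 and 7.95, and just below it lines at 7.28, 7.27 and 7.25, a gap of 0.27 between the groups. The Minghui 63 type made up 52.4% of the lines, with an exact 95% binomial interval of 45.4% to 59.3%. Among Zhenshan 97-type lines 26 read lower than the lowest Zhenshan 97 array, and 29 Minghui 63-type lines read higher than the highest Minghui 63 array.

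**Figure D1:**
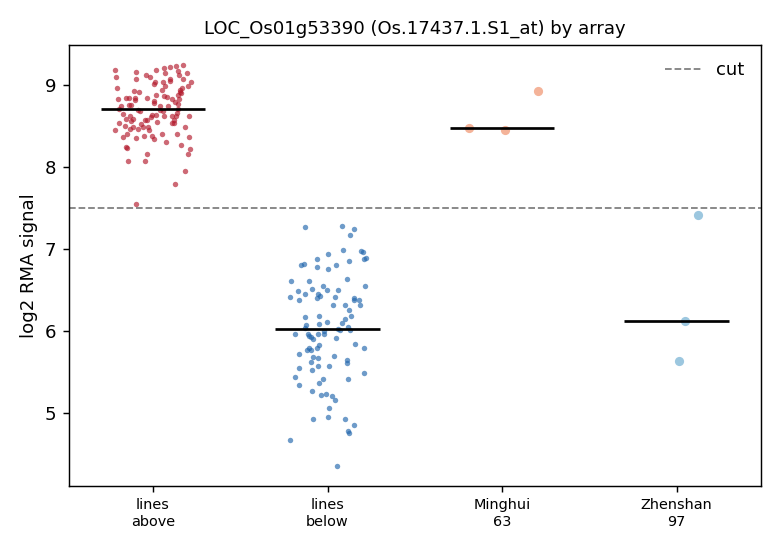
Log2 RMA signal of LOC_Os01g53390 on the vertical axis for the 110 lines above the cut, the 100 lines below it, and the 3 arrays of each parent. Each point is an array, black bars are medians and the dashed line is the cut at 7.5, with no line between 7.28 and 7.55.

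Array-wide measures overlapped between the groups of lines. Array medians ran from 5.17 to 5.32 in Minghui 63-type lines and from 5.15 to 5.29 in Zhenshan 97-type lines, and the median difference of the 3' over the 5' gapdh control probe sets was 1.13 in Minghui 63-type lines and 1.07 in Zhenshan 97-type lines. Ghd7, a heading-date repressor on another chromosome, was of the Minghui 63 type in 53 of the 110 Minghui 63-type lines and in 51 of the 100 Zhenshan 97-type lines. The leaf identity of the samples was read from RBCS, the small subunit of Rubisco, and RCA, its activase, with median levels of 14.42 and 14.64 in Minghui 63-type lines and 14.41 and 14.64 in Zhenshan 97-type lines. These were the 2 of 7 listed mesophyll markers that could be matched by name. The 6 matched floral organ markers and 3 matched root markers did not differ between the groups past the threshold. Their mean levels over each list spanned 4.98 to 5.57 and 5.93 to 6.96 in Minghui 63-type lines, against 4.85 to 5.49 and 6.08 to 6.91 in Zhenshan 97-type lines. Single members varied more, with medians in Minghui 63-type lines from 3.01 (OsMADS58) to 8.64 (OsMADS16) and from 3.62 (Lsi2) to 9.24 (Lsi1).

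Over the 57257 other probe sets, 1269 (2.22%) differed between the types at an adjusted p under 0.05 (limma with Benjamini-Hochberg adjustment). In Minghui 63-type lines 467 of these (0.816% of those tested) were higher and 802 (1.4%) were lower. Most differences were small, with a median absolute size of 0.19, and 66 probe sets (0.115%) differed by at least 1, which is at least a doubling or halving of the signal, 25 of them higher and 41 lower in Minghui 63-type lines. The balance of directions depended on the fit, with 616 higher and 450 lower once the first 5 principal components of the lines were added, and 2356 higher and 1917 lower with lines within 1 of the cut left out. Of the 782 called probe sets whose gene has a known chromosome, 392 (50.1%) had it on chromosome 1, whereas 15.3% of such probe sets tested did. Among calls of at least 0.5 the share on chromosome 1 was 88% (88 of 100), and among those of at least 1 it was 37 of 39.

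The share of calls on chromosome 1 was highest around the glucosyltransferase genes and was higher on the distal than on the proximal side. Distances are counted here in protein-coding genes from LOC_Os01g53430, the nearest cluster member on the distal side with a place in the gene order of assembly ASM3414082v1, and distal means towards higher locus numbers. Within 100 genes on the distal side 55 of 97 probe sets (56.7%) were called, between 100 and 250 genes 51 (34.5%), between 250 and 500 genes 81 of 200 (40.5%), and between 500 and 1000 genes 66 of 467 (14.1%). On the proximal side the share was 46.2% (42 of 91) within 100 genes, and 9.49% (13 probe sets) between 100 and 250 genes, 9.13% (21 of 230) between 250 and 500 genes, and 6.67% (25 of 375) between 500 and 1000 genes. Beyond 1000 genes it was 3.0% on the distal side and 1.46% on the proximal side, near the 2.05% of probe sets on the other chromosomes. The calls within 100 genes were mixed in sign, with 24 higher and 31 lower in Minghui 63-type lines on the distal side, and 24 higher and 18 lower on the proximal side.

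**Figure D2:**
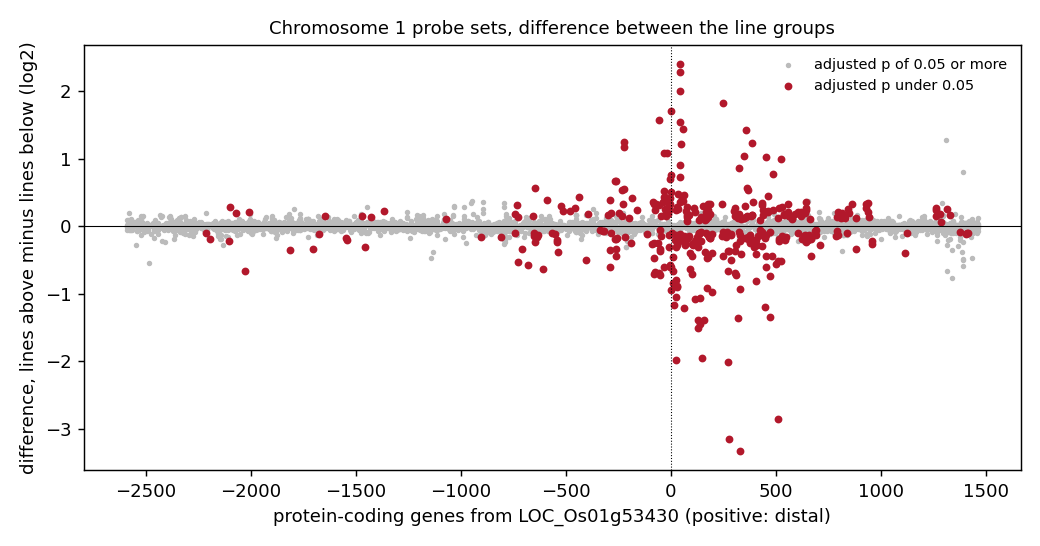
Difference between the lines above and the lines below the cut (log2, vertical axis) for each probe set with a gene in the order of chromosome 1, against its distance in protein-coding genes from LOC_Os01g53430. Red points had an adjusted p under 0.05, with the largest negative difference of -3.33 at 328 genes on the distal side.

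All 10 probe sets named for the glucosyltransferase cluster, those of its aminotransferase gene included, passed the test, and they did not move as one. Their locus names came from the study's eQTL table, which was made from the same RILs, so these passes are not independent evidence. Cluster probe sets absent from that table could not be named and are not counted here. LOC_Os01g53430, annotated as an anthocyanidin 5,3-O-glucosyltransferase, was the most strongly raised member. Its probe set had lowest, median and highest values of 4.90, 6.11 and 7.34 in Minghui 63-type lines and of 3.78, 4.37 and 5.0 in Zhenshan 97-type lines. Only 1 Minghui 63-type and 2 Zhenshan 97-type lines fell within the range of the other group, and the difference was 1.71 with a standard error of 0.05, a 3.27-fold change (limma adjusted p = 1.67e-78). Minghui 63 read 5.33, 5.54 and 6.39 on its arrays and Zhenshan 97 4.84, 4.65 and 5.09, a difference of 0.90 that did not pass the test (limma adjusted p = 0.115).

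LOC_Os01g53460, with the same annotation and next to it in the gene order, went the other way. It read 4.94, 5.45 and 6.09 (lowest, median and highest) in Minghui 63-type lines, against 5.73, 6.4 and 7.03 in Zhenshan 97-type lines, and the ranges shared 3 Minghui 63-type and 16 Zhenshan 97-type lines. The difference was -0.95 ± 0.03 (SE), with limma adjusted p = 2.37e-71, and the parents differed in the same direction, by -1.18 (limma adjusted p = 0.0267).

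Proximal members of the cluster overlapped between the types and were split in direction. LOC_Os01g53350 had medians of 8.16 in Minghui 63-type lines and 8.76 in Zhenshan 97-type lines, a difference of -0.61, and LOC_Os01g53330 had medians of 11.76 and 12.36 and a difference of -0.58. For LOC_Os01g53370 the 2 probe sets gave differences of 0.34 and 0.70, with no parental difference past the threshold (-0.20 and -0.01, limma adjusted p = 0.814 and 0.995). The adjusted p over the lines was at most 2.19e-10 for each of these 4 probe sets. At LOC_Os01g53350 the parental difference was -2.14, larger than that between the line types, with Minghui 63 at 7.94 ± 0.14 and Zhenshan 97 at 10.08 ± 0.93 (SD, n = 3 each).

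An aminotransferase gene of class I and II, LOC_Os01g53450, lies within the cluster, and all 4 of its named probe sets were higher in Minghui 63-type lines. The widest difference was that of a probe set with values of 6.60, 7.57 and 8.30 (lowest, median and highest) in Minghui 63-type lines and 5.34, 6.12 and 7.0 in Zhenshan 97-type lines. It came to 1.41 ± 0.05 (SE), with limma adjusted p = 1.15e-76, while the other 3 probe sets gave 0.43, 0.50 and 0.75. Minghui 63 also exceeded Zhenshan 97 at this probe set, by 2.15 (limma adjusted p = 0.000463). How far probe sets of one gene, or of related copies, share probes was not tested.

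The clearest separation between the types outside the cluster was that of LOC_Os01g54040, an ATP-dependent protease La (Lon family, ATP-driven proteases that degrade damaged proteins in organelles), 43 genes distal. The probe set with the largest difference had lowest, median and highest values of 5.47, 6.50 and 7.07 in Minghui 63-type lines and of 3.28, 4.06 and 4.94 in Zhenshan 97-type lines. No value of one type reached the range of the other, and the difference was 2.40 ± 0.04 (SE), with limma adjusted p = 7.36e-139. Minghui 63 averaged 6.87 ± 0.26 and Zhenshan 97 3.91 ± 0.60 (SD, n = 3 each). The other 4 probe sets of this gene gave differences between 0.90 and 2.29, all higher in Minghui 63-type lines. A split of the lines by this protease probe set in place of that of LOC_Os01g53390 gave the same 110 and 100 lines.

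Complete separation of the 2 groups of lines was found for 5 of the 57257 probe sets (0.00873%), of which 4 had a gene on chromosome 1. Besides 3 probe sets of the protease, these were a probe set of LOC_Os01g54119 (annotated as a retrotransposon protein, 48 genes distal), with a difference of 1.22, and a probe set to which no gene was assigned. The unassigned probe set read 4.84 to 6.99 in Minghui 63-type lines and 7.70 to 9.03 in Zhenshan 97-type lines, a difference of -2.80 ± 0.04 (SE). These 5 were identified after their values were seen.

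Several other neighbours on either side changed by more than a doubling. LOC_Os01g52530, a putative phosphoribosyl transferase 58 genes proximal, was higher in Minghui 63-type lines by 1.57 ± 0.06 (SE), with medians of 6.30 in Minghui 63-type lines and 4.59 in Zhenshan 97-type lines. LOC_Os01g54340, 58 genes distal, was higher by 1.44 ± 0.07 (SE), although the parental difference of 0.60 did not pass (limma adjusted p = 0.292). In contrast, LOC_Os01g54424, 64 genes distal, was lower by 1.21 in Minghui 63-type lines, with medians of 5.82 against 6.97. LOC_Os01g53610, a selenium-binding protein 13 genes distal that was singled out after its values were seen, differed by -1.16, with medians of 7.16 in Minghui 63-type lines and 8.31 in Zhenshan 97-type lines. The 6 probe sets of LOC_Os01g53810, a putative peptidase, differed by -0.35 to -0.91, all in the direction of the parental difference.

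Proximal to the cluster, LOC_Os01g52810 (an expressed protein without a known role) showed a nearly on-or-off pattern. At one of its probe sets the lowest, median and highest values were 2.61, 3.06 and 7.75 in Minghui 63-type lines and 2.58, 7.25 and 7.79 in Zhenshan 97-type lines. The difference of -3.95 ± 0.10 (SE), a 15.5-fold change, was close to the -4.14 between the parents. Only 6 of the 210 lines were of the other parental type at this probe set, which was likewise singled out after its values were seen. The probe set of the same locus with the higher mean differed by -1.48.

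**Figure D3:**
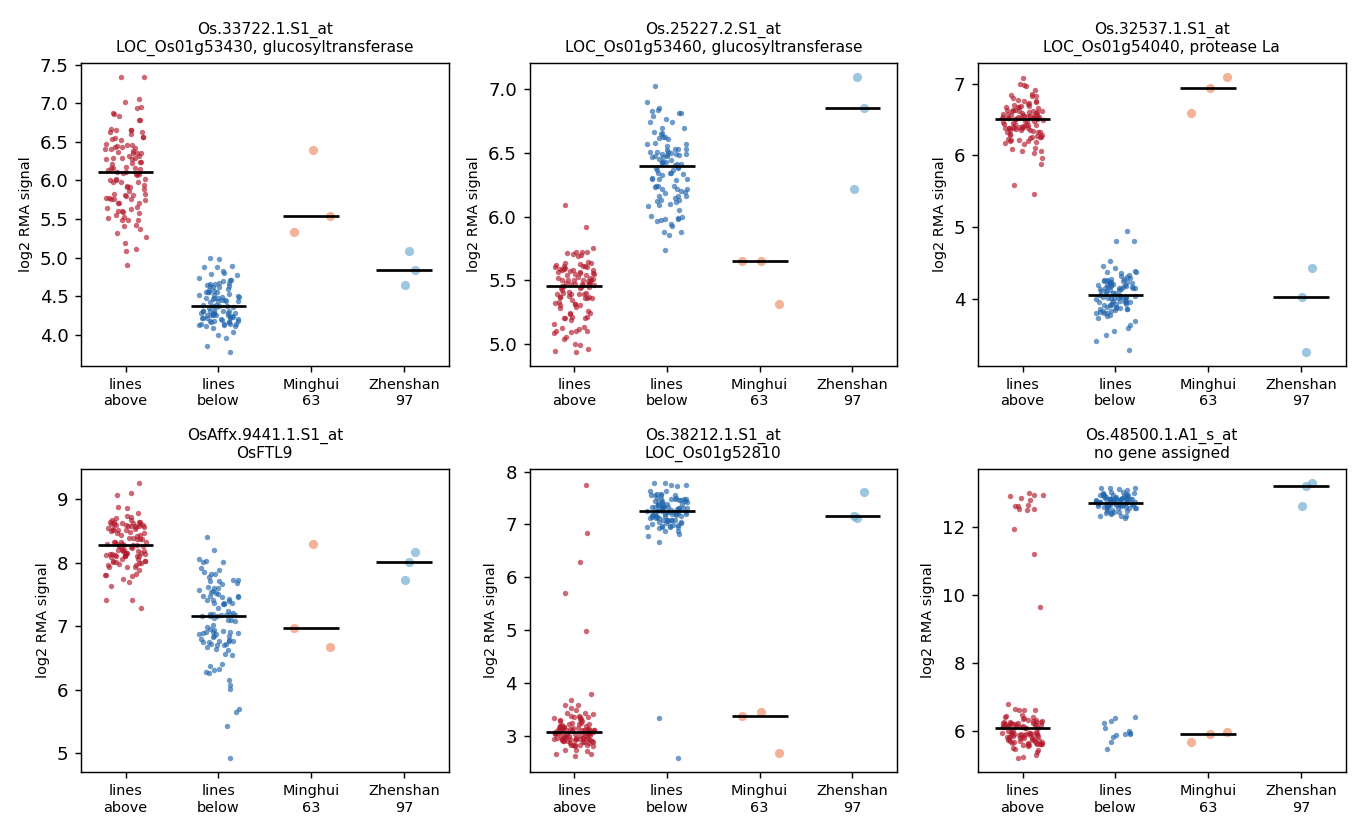
Log2 RMA signal (vertical axes) of 6 probe sets in the lines above the cut, the lines below it and the 3 arrays of each parent, with black bars for medians. The groups of lines are apart at the protease La gene LOC_Os01g54040, while at LOC_Os01g52810 and at the probe set without a gene some lines of either group read at the level of the other.

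OsFTL9, a FLOWERING LOCUS T-like gene at LOC_Os01g54490, was higher in Minghui 63-type lines. FLOWERING LOCUS T proteins act as mobile signals that induce flowering in many plants. It had lowest, median and highest values of 7.29, 8.28 and 9.26 in Minghui 63-type lines and of 4.93, 7.16 and 8.40 in Zhenshan 97-type lines, so the ranges overlapped widely. The difference was 1.19 ± 0.07 (SE), with limma adjusted p = 6.18e-41. The parents pointed the other way, with 6.97, 6.67 and 8.30 on the Minghui 63 arrays and 8.17, 7.73 and 8.02 on the Zhenshan 97 arrays, a difference of -0.66 that did not pass (limma adjusted p = 0.464).

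Of the 14 heading-date genes measured among 16 listed, OsFTL9 was the only one called, against 2.22% of all probe sets. Hd3a, a rice florigen, differed by 0.08 (limma adjusted p = 0.908), and Hd1 and Ghd7, upstream regulators of heading, by 0.02 and -0.04. OsMADS15, which encodes a MADS-box factor of inflorescence meristems, differed by 0.20 (limma adjusted p = 0.135). The median over the list was 0.00, as over all probe sets.

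Farther along the distal arm, the largest differences were those of genes at which most, but not all, lines kept the type of the glucosyltransferase gene. LOC4325624, 328 genes distal, read 2.26, 2.73 and 7.82 (lowest, median and highest) in Minghui 63-type lines and 2.27, 7.18 and 9.42 in Zhenshan 97-type lines, a difference of -3.33 ± 0.22 (SE). LOC4327842, 275 genes distal, had medians of 3.71 in Minghui 63-type lines and 7.79 in Zhenshan 97-type lines and a difference of -3.15 ± 0.20 (SE). In both cases the ranges overlapped almost entirely while the medians stood far apart. Calls in the same stretch included LOC4327891, 249 genes distal, at 1.83, LOC4327840 at -2.02, LOC4324129 at -1.36, LOC4327961 at 1.42, LOC4327551 at 1.23 and LOC4327488 at -1.20.

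Nearer genes of the distal arm with lower values in Minghui 63-type lines included CIPK12, a CBL-interacting protein kinase of calcium signalling. It read 4.64, 5.82 and 7.56 (lowest, median and highest) in Minghui 63-type lines, against 5.93, 7.34 and 8.44 in Zhenshan 97-type lines, a difference of -1.45 ± 0.06 (SE). LOC_Os01g55290, a pentatricopeptide repeat protein (a family of organelle RNA-binding proteins), differed by -1.52, and LOC_Os01g55700, a putative NLI interacting factor-like phosphatase, by -1.39. LOC_Os01g55540, an aminotransferase farther along the distal arm than CIPK12 that was singled out after its values were seen, differed by -1.95, with medians of 6.27 in Minghui 63-type lines and 8.31 in Zhenshan 97-type lines. On the proximal side, LOC_Os01g49219 rose by 3.27 ± 0.23 (SE) in Minghui 63-type lines, with medians of 9.06 against 4.46, and LOC_Os01g50030 by 1.24.

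With each chromosome 1 gene read from its probe set with the highest mean, all 20 genes with the largest differences, 10 in each direction, had the sign of the parental difference, and 15 of them passed the test between the parents. Between Minghui 63 and Zhenshan 97, 3042 of 57257 probe sets (5.31%) were called, with 2.86% higher and 2.46% lower in Minghui 63. Of the 1269 probe sets called between the line types, 1055 (83.1%) had the sign of the parental difference, against 57.7% of all those tested. Of the 66 called with a difference of at least 1, 64 had the parental sign and 51 were called in the parents, 50 of these with the same sign. Parental and RIL arrays are different samples, although the parental arrays set the cut.

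The parental type of each line was also read at other probe sets, with the midpoint rule, wherever the parental means were at least 2 apart and the parental arrays did not overlap. Shares are over the 210 lines with exact 95% binomial intervals. At the protease La probe set with the largest difference, all 210 lines had the same type as at LOC_Os01g53390 (100%, interval 98.3% to 100%). The share was 96.7% (93.3% to 98.6%) at LOC_Os01g55540, 89.5% (84.6% to 93.3%) at LOC4327891, 86.7% (81.3% to 91%) at LOC4325624 and 82.9% (77.1% to 87.7%) at LOC4327515, 509 genes distal. Over the 16 probe sets within 300 genes the median was 88.3%, with 10 at 80% or more. These 10 were all distal, and several of them belonged to the protease gene alone. The proximal probe sets among the 16 shared the type in 55.7% to 70% of lines. A probe set of LOC_Os01g52810, proximal but without a place in the gene order, shared it in 97.1%. Between 300 and 600 genes distal the median was 60.5% over 13 probe sets, of which 5 were at 80% or more. It was 55.2% over the 22 probe sets more than 600 genes distal, 53.6% over the 44 more than 300 genes proximal, and 52.9% over 426 probe sets on other chromosomes, where the highest was 64.3%, leaving out a probe set that the study's table gives to LOC_Os01g53620 on chromosome 1.

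Not every neighbouring probe set typed the lines clearly. LOC_Os01g53350, within the cluster, shared the type in only 61.4% of lines, with most lines of both types falling on the Minghui 63 side of its own midpoint. LOC_Os01g53090, a pathogen-related protein 20 genes proximal, shared it in 70%. At these probe sets the values of the 2 types overlapped, so the share is not a count of recombinants.

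**Figure D4:**
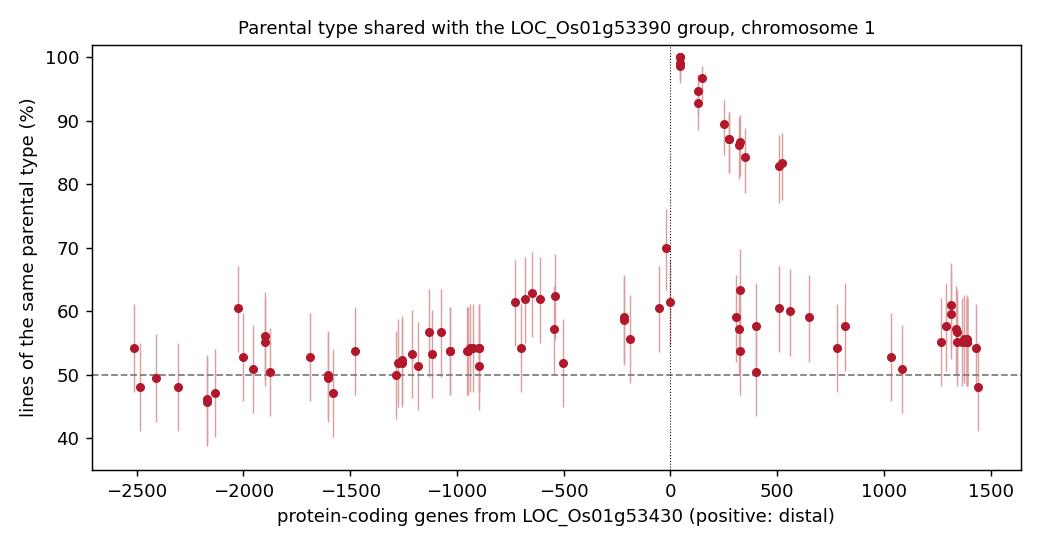
Percentage of the 210 lines with the same parental type at a chromosome 1 probe set as at LOC_Os01g53390 (vertical axis), against the distance in protein-coding genes from LOC_Os01g53430. Points are probe sets with parental means at least 2 apart, bars are exact 95% binomial intervals and the dashed line marks 50%, with shares from 82.9% to 100% along the upper run of points on the distal side.

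Types at 5 places along the arm, LOC_Os01g49219, LOC_Os01g53390, LOC_Os01g55540, LOC4325624 and LOC4327515, were of 1 parent throughout in 70% of the 210 lines, with 80 lines of the Minghui 63 type and 67 of the Zhenshan 97 type at all 5. Differences at the proximal end alone were found in 12 Minghui 63-type lines and 15 Zhenshan 97-type lines. LOC_Os01g49219 and LOC4325624, on opposite sides of the glucosyltransferase gene, differed from each other in 52 lines, and from the glucosyltransferase gene in 32 and 28 lines.

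The largest differences of all belonged to probe sets without an assigned gene, and these followed the distal genes. The lowest of them read 5.21, 6.10 and 13 (lowest, median and highest) in Minghui 63-type lines and 5.48, 12.70 and 13.14 in Zhenshan 97-type lines, a difference of -5.01 ± 0.31 (SE), with limma adjusted p = 9.69e-36. The next differed by -4.89 and had the same type as the first in all 210 lines. Minghui 63 averaged 5.86 ± 0.15 and Zhenshan 97 13.04 ± 0.37 at the first (SD, n = 3 each). In the other direction, the largest differences of unassigned probe sets were 2.87, with medians of 7.25 in Minghui 63-type lines and 3.36 in Zhenshan 97-type lines, and 2.57.

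These 4 probe sets differed in type from the glucosyltransferase gene in 28 lines each, but from LOC4325624 in only 4 lines each. Of the Minghui 63-type lines, the 96 that were also of the Minghui 63 type at LOC4325624 had a median of 5.95 at the probe set with the difference of -5.01, and the 14 of the Zhenshan 97 type there had 12.63. Of the Zhenshan 97-type lines, the 14 of the Minghui 63 type at LOC4325624 had a median of 5.97, and the 86 of the Zhenshan 97 type there had 12.74. The level thus went with the type at LOC4325624 within both groups, as a description of lines chosen by measured values. Another unassigned probe set, higher in Minghui 63-type lines by 1.91, differed in type from LOC4325624 in 60 lines.

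With the types at LOC_Os01g55540 on the distal side and LOC_Os01g35789 on the proximal side added to the fit, 77 probe sets were called, 29 higher and 48 lower in Minghui 63-type lines, and 75 of these were also among the 1269. Only 7 lines differ in type between LOC_Os01g53390 and LOC_Os01g55540, and the fit rests on them for the near distal side. LOC_Os01g35789 shared the type of LOC_Os01g53390 in only 53.8% of lines, near the median of 52.9% for other chromosomes. The fit thus held no type fixed on the near proximal side. Both loci lie on chromosome 1, and they are called the linked loci for short. Of the 46 called probe sets with a known chromosome, 43 had it on chromosome 1. Of those placed in the gene order, 36 lay within 100 genes and none farther than 250 genes. LOC_Os01g49219, on the proximal side, has no place in that order and is outside these counts. It was still called, at 3.58 against 3.27 without these covariates. The 77 also included LOC_Os01g53430 at 1.52, LOC_Os01g53460 at -0.80, the protease probe set at 2.24, OsFTL9 at 1.32 and LOC_Os01g52810 at -3.47. Of the 10 probe sets of the cluster 6 were called and 4 were not, namely 3 of the 4 of LOC_Os01g53450 (0.23, 0.38 and 0.45) and 1 of LOC_Os01g53370 (0.28). In the same fit the difference of the unassigned probe set at -5.01 was 0.43 and that of LOC4325624 was 0.0045, and neither was called.

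Probe sets with genes on other chromosomes were called in 390 of 18995 cases (2.05%), and most of their differences were small. They were lower in Minghui 63-type lines in 266 (68.2%) of these calls, whereas 48.5% of those tested had a negative difference. The quartiles of the absolute difference were 0.10 and 0.22, and 12 reached 0.5. Of these, 2 reached 1, namely a probe set of LOC9266439 at -2.04, described at the end, and the probe set of disputed place below. None of these calls had the clear separation seen around the cluster, except a probe set of disputed place, with ranges of 3.49 to 5.61 in Minghui 63-type lines and 5.08 to 6.74 in Zhenshan 97-type lines. The platform annotation puts it on chromosome 6, while the supplementary eQTL table of the study gives it to LOC_Os01g53620, and its type was that of the glucosyltransferase gene in all but 2 lines.

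Each gene on another chromosome was next read from its probe set with the highest mean over the lines, and the 10 called genes with the lowest differences on that reading are given first. Genes without a chromosome in the platform annotation were placed by the study's eQTL table, and are outside the 390 calls. Here they are OsrbohE, LOC_Os12g36860, LOC_Os04g11780 and LOC_Os11g45130, and among the higher genes below LOC_Os06g10750 and LOC_Os02g11770. They entered through a trans-eQTL found in the same RILs, so their calls are not independent evidence. OsAT5, a member of the acyl-CoA-dependent acyltransferase family, read 4.64, 6.62 and 9.59 (lowest, median and highest) in Minghui 63-type lines and 4.68, 7.29 and 11.94 in Zhenshan 97-type lines, a difference of -0.94 ± 0.17 (SE), with limma adjusted p = 1.98e-05. A cytochrome P450 gene, LOC_Os06g45960, differed by -0.68, OsrbohE, an NADPH oxidase of the family that makes reactive oxygen species, by -0.60, a pathogenesis-related protein 10 gene, LOC_Os12g36860, by -0.58, and LOC_Os04g11780, annotated as a resistance protein, by -0.56. PSK4, a precursor of the peptide growth factor phytosulfokine, differed by -0.54. LOC4331468, which the study's table names LOC_Os09g13440, differed by -0.90, LOC4352346 by -0.62, LOC4336764 by -0.62 and LOC_Os11g45130 by -0.61. All 10 had the sign of the parental difference, and 2 passed the test between the parents. In the study's eQTL table LOC_Os01g53390 is in Bin150, a bin being a stretch of its genetic map. The trans-eQTL of OsrbohE was in Bin149, and that of LOC_Os12g36860 in Bin154. Those of OsAT5, LOC4331468, LOC_Os06g45960, LOC_Os11g45130 and LOC_Os04g11780 were in Bin137, Bin136, Bin132, Bin138 and Bin136. The other genes of the 10 had none in the rows read.

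Among genes higher in Minghui 63-type lines, the widest difference was that of LOC_Os06g10750, an integral membrane protein, with medians of 8.30 in Minghui 63-type lines and 7.66 in Zhenshan 97-type lines (0.71 ± 0.14, SE). OsCPS1, the ent-copalyl diphosphate synthase of gibberellin synthesis, differed by 0.33, SUS5, a sucrose synthase, by 0.29, and the glucosyltransferase gene LOC_Os06g18670 by 0.35. LOC_Os11g07830, a dirigent protein (a family that steers the coupling of phenolic radicals), differed by 0.31, and LOC4334467 by 0.33, LOC4328872 by 0.33, LOC_Os02g11770 by 0.31, LOC_Os03g44420 by 0.30 and LOC4349224 by 0.29. Of these 10, 7 had the sign of the parental difference. In the study's table the trans-eQTL was in Bin154 for LOC_Os06g10750 and LOC_Os11g07830, and in Bin149 for LOC_Os02g11770. For LOC_Os06g18670 and LOC_Os03g44420 it was in Bin37 and Bin49. The other genes of the 10 had none in the rows read.

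Calls were lost among these 20 genes under several alternative fits. With the first 5 principal components of the lines as covariates, 17 of the 20 lost the call, among them all 10 of the lower genes, and those still called were LOC_Os06g10750, LOC4328872 and LOC_Os11g07830. With lines within 1 of the cut left out 10 of the 20 lost it, with blocks of 10 line numbers 5, and at an adjusted p under 0.01 6, whereas all 28 named probe sets of chromosome 1, cluster included, passed in these 4 cases. With the types at the linked loci as covariates none of the 20 was called, and 13 of the 28 on chromosome 1 were. What the components stand for was not tested.

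**Figure D5:**
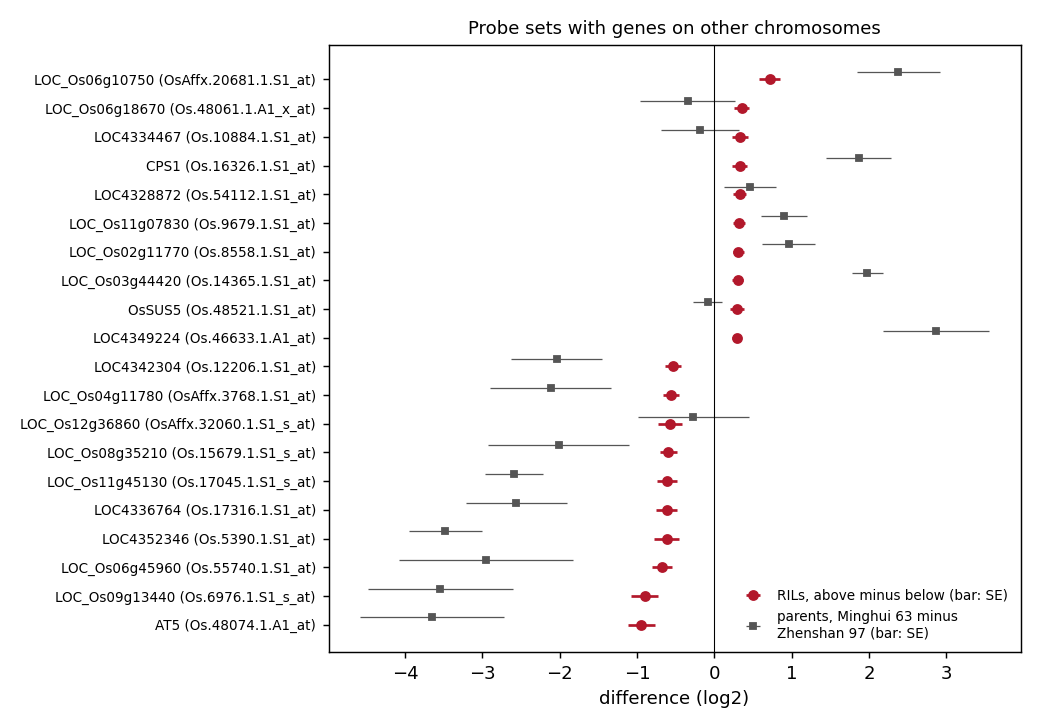
Differences (log2, horizontal axis) of the 10 highest and 10 lowest called genes on other chromosomes, each read from its probe set with the highest mean, as red points for the lines above minus the lines below the cut and grey squares for Minghui 63 minus Zhenshan 97, with bars of 1 SE. The RIL differences lie between -0.94 and 0.71, and 17 of the 20 have the sign of the parental difference.

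In the supplementary eQTL table of the study, 11 probe sets have a trans-eQTL in Bin149 to Bin151, the bins at and beside that of LOC_Os01g53390 (Bin150, chromosome 1 from 30.972 to 31.034 Mb in MSU 6.1). That table was made from the same RILs, so the count of 10 called out of 11 is not independent evidence. The largest difference was that of a probe set with 7.89, 8.55 and 9.17 (lowest, median and highest) in Minghui 63-type lines and 8.99, 9.58 and 10.06 in Zhenshan 97-type lines, a difference of -1.05 ± 0.03 (SE). The study's table gives it to LOC_Os05g27110, but the platform annotation gives it to LOC4326173 on chromosome 1, as it does a further probe set, which differed by -1.28. The other 2 probe sets given to LOC_Os05g27110 differed by -0.46 and -0.49. Those that the study's table gives to LOC_Os07g22494 differed by -0.31 and -0.13, and the platform annotation gives them no single gene. The former had medians of only 2.83 in Minghui 63-type and 3.12 in Zhenshan 97-type lines. Among probe sets with related identifiers, that of no assigned gene differed by -1.08. Those given to LOC4342991 on chromosome 7 were not called (-0.05 and -0.03).

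HSFB1, a heat shock transcription factor of class B, differed by -0.24 ± 0.05 (SE), with medians of 7.61 in Minghui 63-type lines and 7.78 in Zhenshan 97-type lines. LOC_Os01g09190, 2027 genes proximal on chromosome 1, differed by -0.67, and LOC_Os09g31170 by 0.20. LOC_Os07g03900, a lectin-like receptor kinase gene, was the one not called, at -0.43 ± 0.24 (SE; limma adjusted p = 0.50). OsrbohE and LOC_Os02g11770, whose values are given above, are also among the 11. Of the 10 called, 4 kept the call with the types at the linked loci as covariates, namely the 3 probe sets given to LOC_Os05g27110 and 1 of LOC_Os07g22494. With principal components 6 kept it, HSFB1, LOC_Os01g09190, OsrbohE and LOC_Os02g11770 being lost, and with lines within 1 of the cut left out 7 kept it. None of the 11 differed between the parents past the threshold of the limma test.

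Genes that supply the substrates of glucosyltransferases were measured in part, since only 7 of 23 listed phenylpropanoid and flavonoid enzymes could be matched by name. Os4CL5, a 4-coumarate:CoA ligase of the phenylpropanoid pathway, was lower in Minghui 63-type lines, with lowest, median and highest values of 4.90, 5.78 and 7.71 against 5.04, 5.96 and 8.72 in Zhenshan 97-type lines, and the difference was -0.30 ± 0.07 (SE; limma adjusted p = 0.00634). That is 1 of 7 called, against 2.22% of all probe sets. The other 6 did not pass, among them chalcone synthase at 0.11 and chalcone isomerase at 0.08, the first enzymes of flavonoid synthesis (limma adjusted p = 0.720 and 0.704). The median over the 7 was 0.08, against 0.00 over all probe sets.

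Of the 2 matched pathogenesis-related genes among 7 listed, PBZ1, a class 10 pathogenesis-related protein, was lower in Minghui 63-type lines, with medians of 13.37 against 13.46 and a difference of -0.18 ± 0.04 (SE; limma adjusted p = 0.00126). Over all probe sets 2.22% were called. NPR1, a regulator of salicylic acid responses, differed by -0.06 (limma adjusted p = 0.792). None of the 6 matched chlorophyll turnover genes among 7 listed was called, and SGR, the stay-green gene of chlorophyll breakdown, differed by 0.05 (limma adjusted p = 0.815). The calls of Os4CL5 and PBZ1 were both lost with the first 5 principal components as covariates (differences of -0.12 and -0.11) and with lines within 1 of the cut left out (-0.15 and -0.07).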

How the data were processed

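The deposited values were log2 signals of each probe set, computed by the authors from Affymetrix rice arrays with RMA in affy, as the submitters' processing notes name them without versions. They were not renormalized. Probe sequences were not examined, and whether a base difference under a probe lowered the signal of one allele was not tested. No 2 of the 216 arrays were identical (highest correlation 0.996).

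The 210 RIL arrays were split by the midpoint rule and compared over all 57257 probe sets other than controls and that of LOC_Os01g53390 with limma 3.58.1 in R 4.3.3 (lmFit, eBayes with trend; Benjamini-Hochberg threshold 0.05). The parents were compared in the same way with 3 arrays each. Each RIL has 1 array, so the error is the spread between lines, and the 3 arrays of each parent limit the precision of the parental differences. Detection calls were not used, so whether the lowest levels lie above background is not known. Tables and figures were made with Python 3.11.15, pandas 2.3.3 and matplotlib 3.10.9. The limma step was tested on simulated data.

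Of 57258 probe sets besides controls, 22436 carried 1 gene in the platform annotation, 95 several and 34727 none. Symbols and gene order came from assembly ASM3414082v1, and LOC_Os names and bins (MSU 6.1) from the first 1998 rows of the study's eQTL table. Named were the cluster from LOC_Os01g53330 to LOC_Os01g53460, the 10 largest calls in each direction on chromosome 1 and on other chromosomes, the 3 largest in each direction without a chromosome, the trans e-traits of Bin149 to Bin151, and list members, with the probe set of the highest mean per gene except in the cluster and the e-traits. Members and lists were chosen with earlier results of these data known. Alternatives concerned the variance trend, dim probe sets, quantile normalization, the probe set that defines the groups, lines near the cut, blocks of line numbers, principal components, linked and unlinked loci, ranks and the threshold.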

Additional observations from a re-analysis of the deposited data

How the results depend on the processing

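The count of 1269 called probe sets became 4273 with lines within 1 of the cut left out (80 and 77 lines kept, with 2356 higher, 1917 lower and 846 shared with the 1269). It became 77 with the types at LOC_Os01g55540 and LOC_Os01g35789 as covariates, and 766 at an adjusted p under 0.01. It stayed within 1.5 times under the other alternatives, from 969 with blocks of 10 line numbers to 1331 after quantile normalization. It was 1066 with 5 principal components, 616 higher and 450 lower, and 478 of them were shared. With lines within 0.5 left out, an alternative chosen after seeing the data, it was 1104.

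The share on chromosome 1 of 50.1% was 45.2% without dim probe sets, 23.2% and 56.4% with lines within 1 and within 0.5 of the cut left out, 61.3% with line blocks, 57.7% with principal components and 93.5% with the linked types. The cause of these shifts was not tested. With probe sets typed only where the parents were at least 3 apart, the median shared type within 300 genes was 78.6%.

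The sign turned with the linked types as covariates for LOC4325624 (0.0045), LOC4327842 (0.085), LOC4327840 (0.052), LOC4324129 (0.016), LOC_Os06g10750 (-0.073), LOC4334467 (-0.078), OsCPS1 (-0.063), LOC_Os07g03900 (0.012) and the probe sets without a gene that differed by 1.91 (-0.35), -5.01 (0.43) and -4.89 (0.36), none of them called there. For LOC_Os07g03900 it also turned with principal components (0.089).

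Leaving out each parental array in turn gave 1545 to 3416 calls between the parents, against 3042: 1947 without Zhenshan 97 replicate 1, 1849 without Zhenshan 97 replicate 3 and 1545 without Minghui 63 replicate 1. Same-numbered parental arrays did not deviate together (correlations of -0.20, -0.26 and -0.07). With 3 arrays per parent, taken as deviations from their own mean, this cannot show whether the numbers mark shared plantings. The replicate block gave 2307 calls.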

Other observations

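A probe set that the platform annotation gives to LOC9266439 on chromosome 12 and that was singled out after its values were seen, had the largest difference of any probe set with a gene on another chromosome. It read 2.29, 2.80 and 9.69 (lowest, median and highest) in Minghui 63-type lines and 2.32, 6.27 and 7.93 in Zhenshan 97-type lines, a difference of -2.04 ± 0.23 (SE; limma adjusted p = 7.91e-14). In the parents it averaged 2.77 ± 0.30 in Minghui 63 and 4.01 ± 2.36 in Zhenshan 97 (SD, n = 3 each). That difference of -1.24 did not pass the test (limma adjusted p = 0.612). By the midpoint rule its type differed from that of the glucosyltransferase gene in 46 lines. Among the probe sets typed above on other chromosomes, the disputed one left out, the lowest such count was 75. The LOC9266439 probe set was not among them, as its parental means were less than 2 apart. Whether its place on chromosome 12 is right was not tested.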
